A study of Mus musculus with 4 samples.

Results

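The T cell receptor complex and its first signalling proteins were followed as a set of 10 genes chosen by name: the receptor signalling chains Cd3d, Cd3e, Cd3g and Cd247, the coreceptor chains Cd8a and Cd8b1, the kinases Lck and Zap70, the adaptor Lat and the inhibitory surface receptor Cd5. Gene symbols of the array's platform annotation matched 9 of the 10, each through 1 feature, among 19505 genes named on the array. Lck was not analysed here. The cells were CD8+ T cells that came from spleen and lymph node of C57/BL6 mice and were grown for 3 days with IL-2 and with Dynabeads Mouse T-Activator CD3/CD28, beads whose antibodies bind CD3 and the costimulatory receptor CD28. Control cultures (2 arrays) were left untreated, and spermidine cultures (2 arrays) had 25 µM spermidine, a polyamine, in the medium. All groups thus received the same receptor stimulus and the same cytokine, and no group was left without stimulus. The 2 arrays of a group are labelled as biological replicates, with no animal or culture named, and p-values therefore measure only the spread between these samples. The comparison asks how transcript levels differ in activated CD8+ T cells when spermidine is present.

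The antigen-binding chains of the T cell receptor have short tails and signal through the CD3 chains and the zeta chain, which carry tyrosine-based activation motifs. When the receptor binds peptide on a class I molecule, CD8 binds the same molecule and brings the kinase Lck, which phosphorylates these motifs. The kinase ZAP-70 then docks on them and phosphorylates the adaptor LAT, on which the enzymes of the calcium, RAS and protein kinase C branches assemble. CD5 is phosphorylated near the receptor and dampens its signal.

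Several of these genes lie side by side in the mouse genome. In RefSeq's table of mouse genes (GRCm38.p6), used here for order only, 0 other genes lay between Cd3g and Cd3d, between Cd3d and Cd3e, or between Cd8b1 and Cd8a. Promoter windows of 300 bases, from 250 before to 50 after a gene start, were held for 8 of the 9 measured genes (RefSeq, GRCm38.p6). Those of the 3 CD3 genes are shown because these neighbours all had lower mean signals with spermidine. The window of Cd8a is shown as that of the coreceptor chain with the closest replicates. Cd247 is shown as the signalling chain encoded elsewhere, whose mean did not go the same way. None of these differences passed the test reported below. The difference of Cd3e rested on 1 array, and that of Cd247 changed sign with the array left out. Capitals mark matches on either strand to the ETS motif GGAAGT, the RUNX motif TGTGGT or the E protein motif CAGNTG. Shorter or variant forms of these motifs were not marked.
Cd3g, chr9:44980382-44980681, minus strand: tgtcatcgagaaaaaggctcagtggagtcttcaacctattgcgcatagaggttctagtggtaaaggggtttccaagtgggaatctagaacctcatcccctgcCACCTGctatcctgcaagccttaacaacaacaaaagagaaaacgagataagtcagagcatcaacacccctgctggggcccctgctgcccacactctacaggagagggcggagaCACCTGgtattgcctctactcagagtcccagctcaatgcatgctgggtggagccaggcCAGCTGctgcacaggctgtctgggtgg
Cd3d, chr9:44981536-44981835, plus strand: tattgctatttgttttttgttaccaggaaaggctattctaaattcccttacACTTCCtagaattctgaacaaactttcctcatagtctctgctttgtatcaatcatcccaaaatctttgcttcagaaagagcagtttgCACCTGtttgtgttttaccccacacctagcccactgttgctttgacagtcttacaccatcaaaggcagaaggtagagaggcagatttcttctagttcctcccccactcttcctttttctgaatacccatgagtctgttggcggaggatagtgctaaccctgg
Cd3e, chr9:45009562-45009861, minus strand: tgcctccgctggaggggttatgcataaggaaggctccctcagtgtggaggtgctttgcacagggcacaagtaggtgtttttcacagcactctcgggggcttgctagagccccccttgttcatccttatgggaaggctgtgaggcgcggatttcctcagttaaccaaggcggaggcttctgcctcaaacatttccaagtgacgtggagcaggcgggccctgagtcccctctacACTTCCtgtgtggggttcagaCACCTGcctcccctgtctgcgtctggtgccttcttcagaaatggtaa
Cd8a, chr6:71373177-71373476, plus strand: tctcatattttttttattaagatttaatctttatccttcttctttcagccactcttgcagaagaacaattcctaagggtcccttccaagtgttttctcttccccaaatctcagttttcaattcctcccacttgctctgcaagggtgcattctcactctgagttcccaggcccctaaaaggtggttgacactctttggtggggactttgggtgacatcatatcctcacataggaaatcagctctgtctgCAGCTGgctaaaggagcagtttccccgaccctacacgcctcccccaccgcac
Cd247, chr1:165788431-165788730, plus strand: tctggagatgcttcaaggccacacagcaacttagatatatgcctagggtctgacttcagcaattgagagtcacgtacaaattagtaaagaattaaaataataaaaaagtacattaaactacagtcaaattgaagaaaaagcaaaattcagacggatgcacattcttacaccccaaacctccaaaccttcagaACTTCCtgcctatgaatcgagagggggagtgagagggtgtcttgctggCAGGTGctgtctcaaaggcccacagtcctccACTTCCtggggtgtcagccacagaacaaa
The Cd3g and Cd3d windows read away from each other and are 854 bases apart. Each of the 5 windows shown held at least 1 E protein match, and Cd3g held 3 of them. An ETS match was in the Cd3d and Cd3e windows (1 each) and in the Cd247 window (2), and in neither the Cd3g nor the Cd8a window. Over the 32851 windows of all genes in the table, 51.4% held an E protein match, 23.8% an ETS match and 16.8% a RUNX match. All 8 genes with a window had an E protein match in at least 1 of their windows (Zap70 had 3 windows, the others 1). An ETS match was found in 5 of the 8 genes and a RUNX match in 2, Zap70 and Lat. No window shown held a RUNX match. These matches describe the letters of the windows only, and the arrays measured transcripts, not factor binding.

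With spermidine, none of the 9 measured genes passed the test, and the differences that were seen were small. The means of 6 genes were lower with spermidine (Cd8b1, Cd3e, Lat, Cd3d, Cd3g and, except after a further quantile normalization, Cd8a) and those of 3 were higher (Cd5, Zap70 and Cd247). Over all features 50.9% had a lower mean. The 9 genes had a median log2 difference of -0.17 against -0.0067 over all 22206 gene features, which were not matched to them in signal level. The size of the difference ran from 0.05 (Cd247) to 0.34 (Cd8b1), which is 1.04-fold to 1.26-fold in signal. The fold of Cd8b1 comes from near the top of the scale. Whether signals are compressed there, so that it understates the difference in transcript, was not tested. In limma's fit with Benjamini-Hochberg adjustment over all features, 0 of the 9 genes had an adjusted p under 0.05, against 0% of all features, and 0 of 9 had an unadjusted p under 0.05, against 7.02% of all features. In 5 genes (Cd3d, Cd3g, Cd8a, Cd8b1 and Lat) both spermidine arrays lay below both control arrays, an order found in 18.4% of all features. In 1 gene (Zap70) both lay above, an order found in 18.3%, and in Cd3e, Cd247 and Cd5 the groups overlapped. Separate groups in either direction were thus found in 6 of 9 genes, against 36.7% of all features. Among features at or above the median level, which include all 9 genes, the shares were 21.5% below, 19.2% above and 40.7% in either direction. The count of 5 genes depended on the scaling of the arrays: after cyclic loess it was 2 (Cd8b1 and Lat), against 18.7% of all features. Separate groups in either direction then numbered 3 of 9, against 37.8%, and after median centring 4 of 9, against 35.1%.

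**Figure D1:**
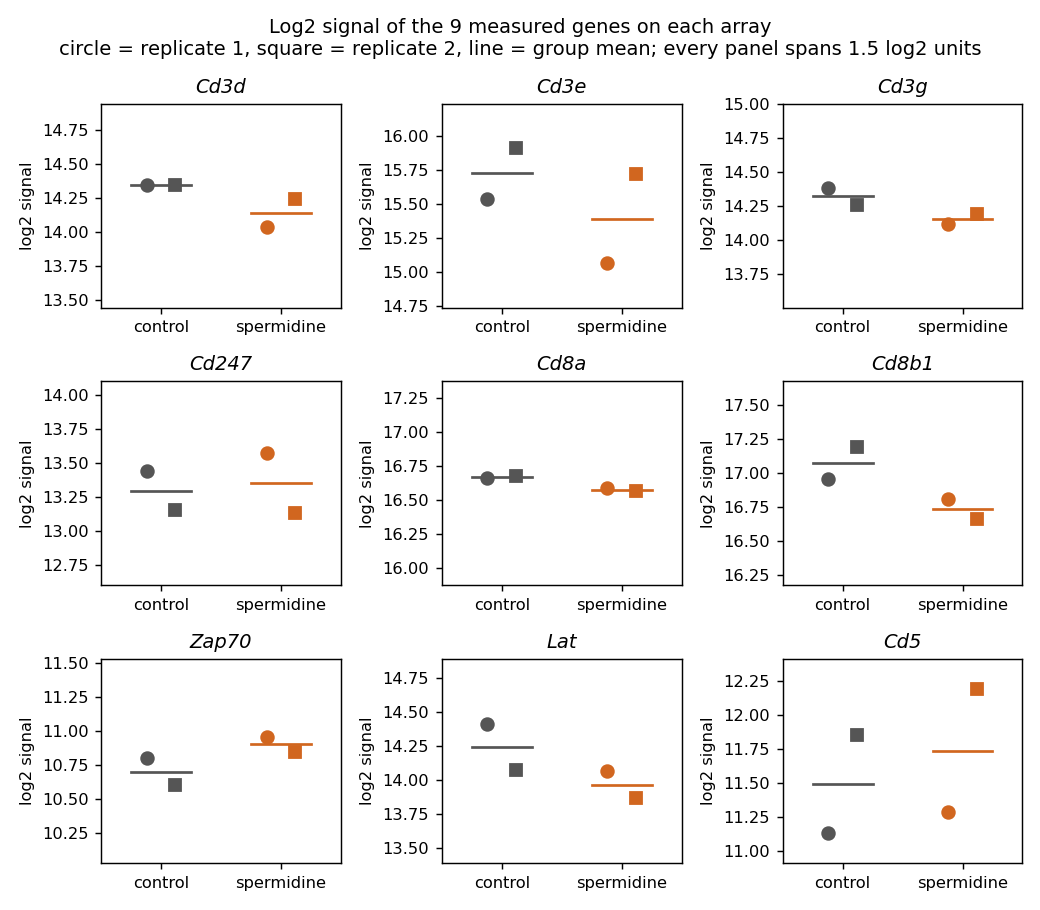
Log2 signal (vertical axis) of the 9 measured genes on the 2 control and 2 spermidine arrays, with circles for replicate 1, squares for replicate 2, lines for group means and the same span of log2 units in each panel. The arrays of Cd8a and Cd3g lie close together. Cd247, Cd5, Cd3e and Lat differ more between arrays of 1 group than between the group means.

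Among the signalling chains, Cd3d and Cd3g showed separate groups and Cd3e did not. After cyclic loess the groups of Cd3d and Cd3g overlapped too. Cd3d, which pairs with CD3 epsilon in the complex, had log2 signals of 14.35 and 14.35 in controls against 14.04 and 14.24 with spermidine. Both spermidine arrays were thus below the controls, which hardly differed from each other. The difference was -0.21 ± 0.22 (SE; 95% interval -0.72 to 0.31; adjusted p = 0.887, limma), and it was -0.10 without spermidine replicate 1 and -0.31 without spermidine replicate 2. Cd3g, whose chain also pairs with CD3 epsilon, stood at 14.38 and 14.25 in the controls and at 14.12 and 14.19 with spermidine. Its groups were separate by less than the gap between the 2 control arrays, and the difference was -0.17 ± 0.22 (SE; 95% interval -0.68 to 0.34; adjusted p = 0.915, limma), with -0.10 without control replicate 1 and -0.23 without control replicate 2.

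Cd3e encodes the chain that both of these partners share, and it is also a usual target of stimulating CD3 antibodies. Its log2 signals were 15.54 and 15.91 in the controls and 15.06 and 15.72 with spermidine. Spermidine replicate 1 was the lowest array, and spermidine replicate 2 lay between the 2 controls. The difference of -0.33 ± 0.29 (SE; adjusted p = 0.848, limma) was 0.505 times the wider of its gaps between replicates. It rested on 1 array: without spermidine replicate 1 it was -0.00355, and without spermidine replicate 2 it was -0.66.

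Cd247 encodes the zeta chain, which carries more activation motifs than any CD3 chain and is needed for the complex to reach the surface. Its log2 signals were 13.43 and 13.15 in the controls and 13.57 and 13.13 with spermidine. In each group replicate 1 was the higher array, and the control values lay inside the range of the spermidine values. The mean difference was 0.05 ± 0.25 (SE; 95% interval -0.53 to 0.64; adjusted p = 0.984, limma), and its sign changed with the array left out, from -0.17 to 0.28.

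Both coreceptor genes had lower signals on the spermidine arrays than on the control arrays, Cd8a only without a further quantile normalization, which turned its direction. Cd8b1, the beta chain that together with the alpha chain forms the coreceptor of conventional CD8+ T cells, had log2 signals of 16.95 and 17.19 in the controls and 16.81 and 16.66 with spermidine. The spermidine arrays lay below both controls, and the difference was the largest of the set at -0.34 ± 0.23 (SE), a 1.26-fold lower signal (95% interval of the log2 difference -0.86 to 0.19; adjusted p = 0.808, limma). Leaving out 1 array at a time gave -0.46 to -0.22. Cd8a, the alpha chain that holds the binding site for Lck, stood at 16.66 and 16.68 in the controls and at 16.59 and 16.57 with spermidine.

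The arrays of each group agreed closely for Cd8a, with gaps of 0.017 and 0.019, and the groups did not overlap. The difference of -0.09 ± 0.22 (SE; 95% interval -0.59 to 0.41; adjusted p = 0.957, limma) was 4.82 times the larger of these gaps. The standard error is set mainly by the spread of all features, since each gene has only 2 arrays a group. After the further quantile normalization Cd8a stood at 0.034 and Cd8b1 at -0.23. The groups of Cd8a overlapped there and after cyclic loess.

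Both coreceptor genes lay near the top of the scale, where signals may be compressed. The spread by level cannot decide this, since the gap within groups also narrowed across bands further down. The highest gene feature stood between 19.74 and 19.93 on each array, and Cd8a and Cd8b1 were among 188 features above 16 on every array. Among features with a mean level above 16, the median gap between arrays of a group was 0.135, against 0.200 in features between 14 and 16 and 0.235 in features between 10 and 12. The median size of the group difference was 0.168 above 16 and 0.192 between 14 and 16, the band of Cd3d, Cd3e, Cd3g and Lat. Cd8b1 (0.34) was above the median of its band and below its 90th percentile of 0.472, and Cd8a (0.09) was below that median. In the lower band, Cd3e (0.33), Lat (0.27) and Cd3d (0.21) were above the median and Cd3g (0.17) below it, all under the 90th percentile of 0.586.

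**Figure D2:**
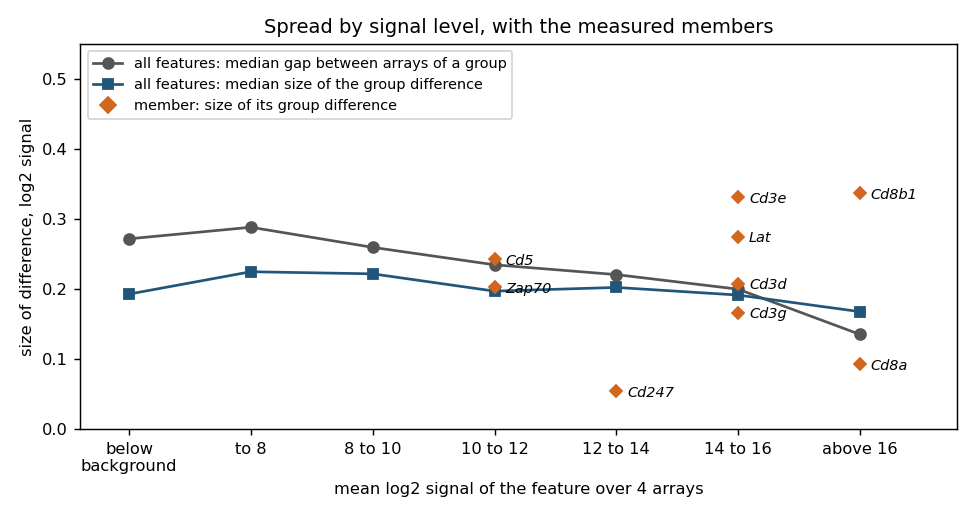
Size of the log2 difference between groups for each measured member (diamonds) against the band of mean log2 signal it falls in, with the median over all features of the gap between arrays of a group (circles) and of the group difference (squares). The gap within groups narrows from 0.235 in the band from 10 to 12 to 0.135 above 16, where Cd8a and Cd8b1 lie.

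Of the proximal kinases, Zap70 was measured. Its log2 signals were 10.80 and 10.61 in the controls and 10.96 and 10.85 with spermidine. Both spermidine arrays were above both controls, by less than the gap between the controls, and the difference was 0.20 ± 0.22 (SE; 95% interval -0.32 to 0.72; adjusted p = 0.893, limma). It was 0.11 without control replicate 2 and 0.30 without control replicate 1. After median centring of the arrays the mean stayed higher (0.19) and the groups overlapped.

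Lat, the membrane adaptor that ZAP-70 phosphorylates, had log2 signals of 14.42 and 14.07 in the controls and 14.07 and 13.87 with spermidine. Control replicate 2 and spermidine replicate 1 were nearly equal (14.0739 and 14.0690), so the groups were separate by a margin far below the gap of 0.343 between the controls. The difference was -0.27 ± 0.24 (SE; 95% interval -0.83 to 0.28; adjusted p = 0.848, limma). Without control replicate 1 it was -0.10, and without control replicate 2 it was -0.45. The groups of Lat overlapped after median centring of the arrays.

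Cd5, the inhibitory receptor, varied most between arrays. Its log2 signals were 11.14 and 11.86 in the controls and 11.29 and 12.19 with spermidine. Replicate 2 was the higher array in both groups, with gaps of 0.719 and 0.904, and the groups overlapped. The mean difference of 0.24 ± 0.36 (SE; 95% interval -0.59 to 1.08; adjusted p = 0.924, limma) was 0.268 times the larger gap. Its sign turned when control replicate 1 (-0.12) or spermidine replicate 2 (-0.21) was left out, and it stood at 0.69 without spermidine replicate 1.

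**Figure D3:**
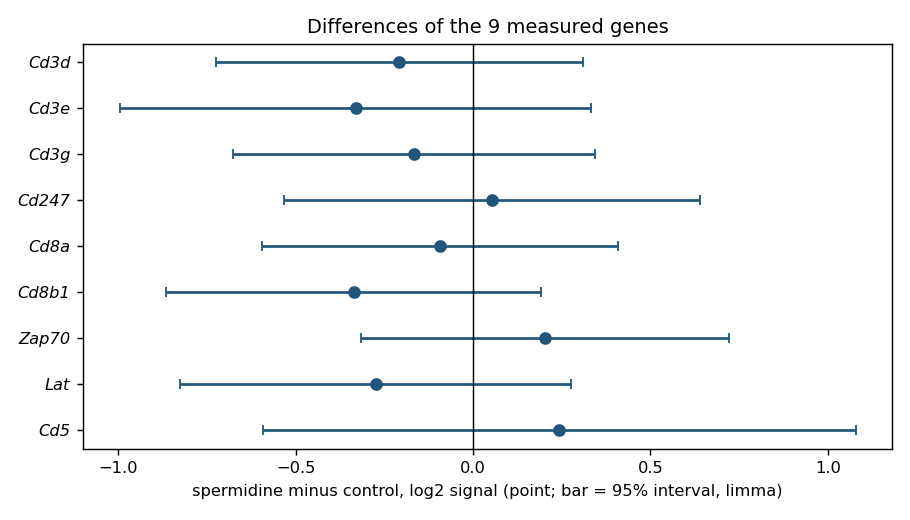
Spermidine minus control in log2 signal (horizontal axis) for the 9 measured genes, with points for the fitted difference and bars for limma's 95% interval. All 9 intervals include 0, and that of Cd5, from -0.59 to 1.08, is the widest.

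The intervals come from the main fit and give, gene by gene, the differences compatible with these arrays. Their lower ends ran from -0.996 (Cd3e) to -0.32 (Zap70). A deposited signal 2-fold lower (a log2 difference of -1) thus lies outside all 9 intervals of this fit, for Cd3e only just. With a robust prior the standard error of Cd3e was slightly larger (0.29 in place of 0.288), so this may not hold there. The upper ends ran from 0.19 (Cd8b1) to 1.08 (Cd5). A missed threshold does not show that a transcript was unaltered. In bulk RNA, fewer cells of a type and less RNA per cell cannot be told apart.

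The same arrays were read for markers of the cells that a CD8+ T cell culture could hold. T cell markers were present: 8 of 12 listed were measured and 8 lay above the antigenomic background, the 95th percentile (6.35 on average) of features whose probes match no genomic sequence. Their mean log2 signal was 12.54 and 12.38 in the controls and 12.45 and 12.47 with spermidine. Of the CD4+ T cell markers Cd4 stood at 7.11 and 6.84 in the controls and 6.59 and 7.24 with spermidine, close to background, and Cd40lg was below it. The third measured, Zbtb7b, a transcription factor of the CD4 lineage, stood at 6.32 and 6.88 in the controls and 7.32 and 7.41 with spermidine, with separate groups (0.76 ± 0.26, SE; adjusted p = 0.639, limma). Of 12 B cell markers, 11 were measured and 4 lay above background. The 11 had mean signals of 5.48 and 5.30 in the controls and 5.97 and 5.59 with spermidine. Means were higher with spermidine in 10 of them, while over all features 50.9% had a lower mean. Most of the 11 were below background on average, among them Pax5 and Ms4a1 in both groups. Of 12 macrophage and monocyte markers, 10 were measured and 0 lay above background. The 10 had mean signals of 4.19 and 4.14 in the controls and 4.28 and 4.40 with spermidine. Means were higher with spermidine in 6 of these 10 and lower in 4. Of 10 natural killer cell markers, 8 were measured and 3 lay above background. The 8 had mean signals of 6.32 and 6.08 in the controls and 6.38 and 5.98 with spermidine. The brightest was Nkg7, at 15.46 on average. All 7 dendritic cell markers were measured and 0 lay above background. They had mean signals of 3.54 and 3.76 in the controls and 3.72 and 3.82 with spermidine. The 1 measured gamma delta T cell marker, Sox13, was below background. Nkg7, in the natural killer list, is also made by activated CD8+ T cells. The part of Zbtb7b and of the B cell and macrophage signals in the values of the CD3 and CD8 genes was not tested.

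The rest of the pathway was read from lists by position in the cascade, 152 genes in all, of which 132 were measured and 118 lay above background. No gene passed the test over all features (0 of 132 with an adjusted p under 0.05, limma), 5 had an unadjusted p under 0.05, against 7.02% of all features, and the median log2 difference was 0.00185. Both spermidine arrays lay above both controls in 25 genes and below in 24, against 18.3% and 18.4% of all features, and means were lower in 66, against 50.9%. These counts were near the shares over all features. None of the 7 listed constant chains of the receptor was analysed here. Values for the genes with the largest test statistics above background follow, by their place in the cascade. Leaving out 1 array moved the difference of 23 of these 32 genes by over 1.5 times, and Cd28, Ptk2b, Ubash3a, Sit1, Nfatc1, Itpr2, Ppp3cc, Rac1 and Cd79a were those that stayed within it.

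Surface partners had differences in both directions (11 measured, median 0.03). Cd28, the costimulatory receptor that the beads bind, stood at 13.10 and 13.35 in the controls and 13.51 and 13.79 with spermidine, with separate groups and a difference of 0.43 ± 0.24 (SE). Cd6, a scavenger-type receptor related to CD5, had 10.09 and 10.56 against 10.49 and 10.98, and its arrays overlapped with replicate 2 the higher in both groups, the pattern of Cd5. Thy1, a glycoprotein of the T cell surface, stood at 15.09 and 14.73 against 14.64 and 14.47 (-0.36 ± 0.24, SE, and -0.18 without control replicate 1). The tetraspanin Cd9 differed by 0.35, and by 0.11 without spermidine replicate 2.

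Kinases near the receptor were mostly dim: 5 of the 13 measured were above background, and the median was 0.04. Fyn, the Src-family kinase that can also phosphorylate the activation motifs, had 12.79 and 12.67 in the controls and 12.97 and 12.81 with spermidine (0.16 ± 0.22, SE), with separate groups. The focal adhesion family kinase Ptk2b had 7.89 and 8.10 against 8.64 and 8.35 (0.50 ± 0.23, SE). The TEC-family kinases Tec (0.15) and Txk (-0.03) overlapped between groups. Syk, the relative of ZAP-70 that B cells use, was below background on average, with 6.22 and 6.45 in the controls and 6.11 and 5.67 with spermidine.

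In the assembly around LAT and SLP-76 (34 measured, median -0.04, 15 higher and 19 lower in the mean), the guanine nucleotide exchange factor Vav2 had 6.16 and 6.82 in the controls and 6.84 and 7.33 with spermidine. The phospholipase Plcg2, better known from B cells, had 6.81 and 6.99 against 7.77 and 7.07. The differences were 0.60 ± 0.30 (SE) for Vav2 and 0.52 ± 0.28 (SE) for Plcg2. With 1 array left out, that of Vav2 ran from 0.27 to 0.93 and that of Plcg2 from 0.17 to 0.87. Vav2 was below the background of 6.35 in control replicate 1. Fyb, an adaptor that links the receptor to integrins, differed by -0.32 ± 0.23 (SE), and the actin regulator Evl by -0.36 ± 0.24 (SE), both with separate groups.

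Genes listed as brakes on receptor signals, a grouping that was not tested here, held the lowest difference of the lists. Of 23 measured, 14 were lower in the mean (median -0.05). Both spermidine arrays lay below both controls in 7, against 18.4% of all features, and above in 3, against 18.3%. Sit1, a transmembrane adaptor that dampens receptor signals, stood at 9.85 and 9.74 in the controls and 9.04 and 8.49 with spermidine. The spermidine arrays were well below the controls, and the difference was -1.02 ± 0.26 (SE; adjusted p = 0.637, limma), a 2.03-fold lower signal, with -1.30 to -0.75 when 1 array was left out. Ubash3a, a phosphatase-like protein that restrains receptor signals, had 10.41 and 10.42 against 9.93 and 9.78 (-0.55 ± 0.22, SE; adjusted p = 0.692, limma). The phosphatase Ptpn2, which acts on Lck and on STAT proteins, differed by -0.43 ± 0.27 (SE) and the adaptor Sla2 by -0.40 ± 0.25 (SE).

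**Figure D4:**
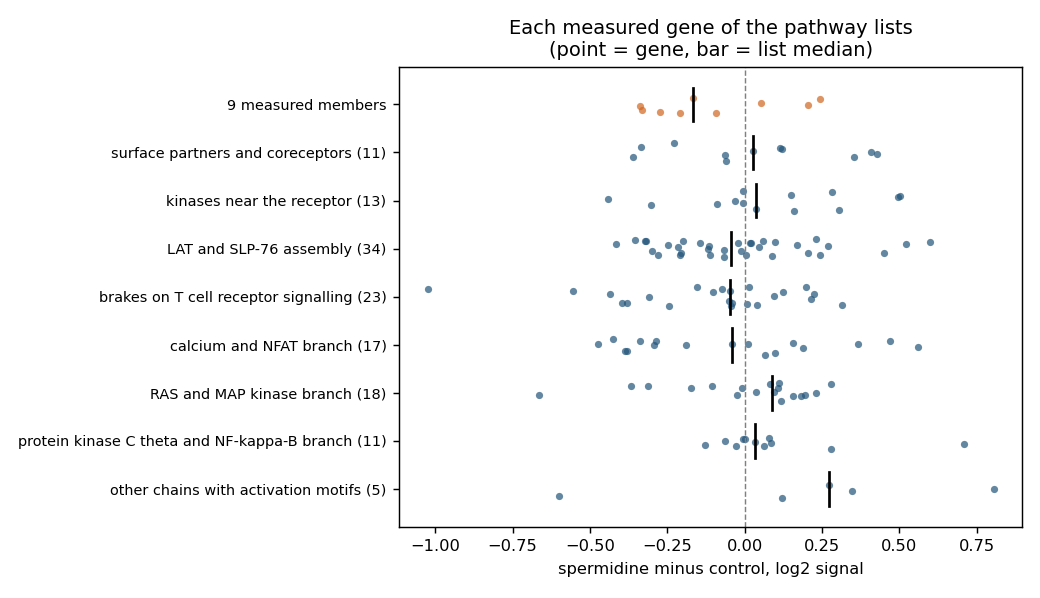
Spermidine minus control in log2 signal (horizontal axis) for the 9 measured members and for each measured gene of 8 pathway lists, with a point for each gene, a bar for the list's median and the number of genes in parentheses. The lists spread on both sides of 0, with Sit1 at -1.02 the lowest point.

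Downstream branches also held values in both directions. In the calcium branch (17 measured, median -0.04) the transcription factor Nfatc1 stood at 11.18 and 11.18 in the controls and 11.61 and 11.87 with spermidine (0.56 ± 0.23, SE; adjusted p = 0.706, limma), and the calcium channel Itpr2 differed by 0.47 ± 0.23 (SE). The calcineurin subunits Ppp3cc (-0.47 ± 0.23, SE) and Ppp3r1 (-0.43 ± 0.24, SE) had lower means with separate groups. These 4 values thus lay on both sides of 0 within 1 branch.

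In the RAS and MAP kinase branch (18 measured, median 0.09) the exchange factor Rasgrp2 had 12.55 and 12.34 in the controls and 12.19 and 11.37 with spermidine. Its difference of -0.67 ± 0.30 (SE) became -0.26 without spermidine replicate 2. The GTPases Rac1 and Rhoa differed by -0.37 and -0.31, and the GTPase-activating Rasa2 by 0.28. In the branch of protein kinase C theta (11 measured, median 0.03) the paracaspase Malt1, which acts in NF-kappa-B activation, had 10.51 and 11.03 against 11.39 and 11.57 (0.71 ± 0.26, SE; adjusted p = 0.663, limma), a difference of 0.45 without control replicate 1. Pdpk1 differed by 0.28, Akt2 by 0.09 and Traf6 by -0.13.

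Other receptor chains with activation motifs were dim, with 5 measured and a median of 0.27. Cd79a, a signalling chain of the B cell receptor, had 6.44 and 6.50 in the controls and 7.40 and 7.15 with spermidine (0.81 ± 0.23, SE; adjusted p = 0.637, limma), and its partner Cd79b differed by 0.35 ± 0.24 (SE). Both are also in the B cell list above. Hcst, the adaptor of the killer receptor NKG2D, which signals through another motif, had 7.73 and 7.02 against 6.73 and 6.82 (-0.60 ± 0.28, SE), which became -0.25 without control replicate 1. Fcer1g differed by 0.27, and by 0.016 without control replicate 2.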

How the data were processed

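The deposited values are log2 signals per array feature, for which the submitters' processing notes name Affymetrix Expression Console with RMA (background correction, quantile normalization between arrays, summary over probes). Such values understate differences of dim features. The log2 base was inferred from the range of the deposited values, whose maximum (19.93) is high for RMA; whether signals were rescaled is unknown, so every fold given is one of deposited signals and not a calibrated fold of transcript. Signals may also flatten near the top of each array, which would compress the brightest features. This was not tested, and no source used here states it. The value table held 28846 features, of which 6640 array controls were left out and 22206 gene features tested. The platform annotation gave 19572 of these 1 symbol, 0 several and 2634 none, and 19572 were found in RefSeq (GRCm38.p6) with 0 changed.

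Groups and replicate numbers came from the sample titles. Spermidine was compared with control by limma 3.58.1 under R 4.3.3 (lmFit, then eBayes with a constant prior of 5.96 degrees of freedom beside 2 residual ones). Tests were two-sided, and p-values were adjusted by Benjamini-Hochberg over all features, with a threshold of 0.05. No exact permutation test was used, since with 2 arrays a group its p cannot be below 0.333. The brightest feature stood for a gene. Lists were described by counts and medians, without a test, and pathway genes named were the up to 4 with the largest statistics in a list among those above background; Syk was named as the relative of Zap70 after its values were seen. Alternatives were other priors, array weights and further normalizations (quantile, median centring, cyclic loess). Others were filters on dim features or on those above 16 on every array, and other rules for features of a gene. The replicate number as a block and leaving out each array were also run. The test was also run on simulated data, whose outcome is not given here. The members and lists were chosen with earlier results of these data known. Arrays have no sequencing depth, and their number limits the precision.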

Additional observations from a re-analysis of the deposited data

How the results depend on the processing

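No value of the 9 genes passed the threshold under any of the alternatives run (adjusted p from 0.559 to 1, limma), and 128 of 133 recomputed values kept their sign. The 5 that turned were Cd8a after quantile normalization (0.034), Cd5, which ran from -0.21 to 0.69 when 1 array was left out and was below 0 without control replicate 1 or spermidine replicate 2, and Cd247, which ran from -0.17 to 0.28 and was below 0 without control replicate 2 or spermidine replicate 1. Leaving out features above 16 on every array dropped Cd8a and Cd8b1, so no value was computed for them or for the median of the 9 genes there. The count of genes with both spermidine arrays below both controls, recomputed as a choice made after seeing the data, was 4 after quantile normalization (18.7% of all features) or median centring (17.9%) and 2 after cyclic loess, in place of 5. Over all features 1 passed in place of 0 with a prior that follows intensity, after median centring, after cyclic loess, among features at or above the median level and with the replicate number as a block; each time it was Hmox1. In the pathway lists 0 genes passed under each alternative, and list medians near 0 did not hold their sign. That of the LAT and SLP-76 assembly was 0.05 without control replicate 1 and 0.0048 after cyclic loess. For the genes listed as brakes on receptor signals the median was 0.0012 after cyclic loess and 0.041 without spermidine replicate 2. The sign of Txk turned after quantile normalization (0.013) and cyclic loess (0.027). With 1 array left out, signs turned for Txk (-0.23 to 0.17), Akt2 (-0.015 to 0.18), Tec (-0.16 to 0.46) and Traf6 (-0.27 to 0.014).

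The replicate numbers are not known to pair the arrays; deviations of same-numbered arrays correlated at 0.210 across features. With the replicate block the median of the 9 differences stayed at -0.17, the adjusted p of the genes ran from 0.618 to 0.955 (limma), and 2350 features had an unadjusted p under 0.05 in place of 1558. Where 1 array was left out, the lone array was assumed to vary like the other group, and the median of the 9 genes ran from -0.20 to -0.10.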
